A study of Mus musculus with 6 samples.

Results

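The genes described here belong to the plasminogen system and to the serpin family of protease inhibitors: the plasminogen activators Plau and Plat, the activator receptor Plaur, and the serpins Serpine2, Serpinf1, Serping1, Serpinh1 and Serpinb6a. They were taken as a list of 8 genes, with every probe set annotated to exactly 1 of them. The annotation used here paired 11 probe sets with 7 of the 8 genes, out of 45101 probe sets in all. It named no probe set for Serpine2, the protease nexin that inhibits thrombin and the plasminogen activators, which is therefore not analysed here. Of the 11 probe sets 9 were bright enough to be tested, at least 1 for each of the 7 genes.

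Expression was measured on Affymetrix arrays in clonally selected stromal cells from adult mouse bone marrow, with 3 arrays of neural crest stem cells (NCSC) and 3 of mesenchymal stem cells (MSC). The mice behind both groups carried wnt1/CRE-R26R-lacZ, a Cre driven by Wnt1 sequences with a lacZ reporter that marks the descendants of the neural crest, on a C57BL/6 x SV129 background. They are labelled female and 10 weeks old. Cultures of both groups were kept in Mesencult, with 5 passages or more behind them before clones were picked, and none was treated. The design text calls the 3 arrays of each group biological replicates. Whether they stand for different mice or different clones is not stated, so p-values reflect only the variation among these 6 arrays, part of which may be technical. Effects of clone and of cell type cannot be told apart. In such bulk samples fewer cells of a type and less RNA per cell cannot be told apart either.

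Plasminogen is a zymogen made mainly by the liver and carried in blood. The urokinase-type activator uPA (Plau), held at the cell surface by the receptor uPAR (Plaur), and the tissue-type activator tPA (Plat) cut it to plasmin, which dissolves fibrin and breaks down matrix proteins around moving cells. Serpins are proteins with an exposed loop that most of them use as bait to trap a protease for good. Some have given up inhibition for other work, among them PEDF (Serpinf1), a secreted factor of bone and nerve tissue, and Hsp47 (Serpinh1), a collagen chaperone of the endoplasmic reticulum. Of the serpins listed, Serpine2, Serpinf1 and Serping1 are secreted, whereas Serpinh1 is retained in the cell and Serpinb6a belongs to the intracellular clade B.

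The cells matched their labels in part. The 6 NCSC markers with a probe set, Sox10, Foxd3, Ngfr, Erbb3, Cdh19 and Sox2, were above a log2 intensity of 4, the limit used here for background, on all 3 NCSC arrays, and none of them was so on all 3 MSC arrays. Of 7 MSC markers with a probe set 6 were above it on all NCSC arrays and 5 on all MSC arrays. The defining marker Thy1 was under the limit on all 6 arrays. The 6 tested MSC markers were split, with 3 higher and 3 lower in NCSC. Nt5e, under the limit on all MSC arrays, was at least 22.8-fold higher in NCSC. On the log2 scale, NCSC minus MSC, Eng differed by 4.69 and Cd44 by 0.31. Pdgfra, Vcam1 and Itgb1 differed by -3.17, -4.04 and -0.55. Endothelial markers (6 of 6), and the lymphoid and erythroid markers with a probe set (4 of 4), were under the limit on all arrays. The Y-linked genes Eif2s3y and Uty were above the limit on all 6 arrays and Xist was under it on all 6, which goes against the label female. Another tested Y-linked gene, Kdm5d, had 8.66, 8.58 and 9.24 in NCSC, against 2.16, 2.16 and 2.12 in MSC. Across the 21004 tested probe sets NCSC 1 and NCSC 2 had 0.486% of probe sets more than 2-fold apart, and MSC 1 and MSC 3 had 0.519%. NCSC 3 differed that much from NCSC 1 and NCSC 2 at 4.98% and 4.86% of probe sets, and MSC 2 from MSC 1 and MSC 3 at 3.37% and 3.34%. Leaving out NCSC 3, MSC 2 or both changed no call among the members' probe sets.

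Both plasminogen activators were higher in NCSC, their receptor was not called, and 3 serpins were lower. By the brightest probe set of each gene, 2 of the 7 genes rose (Plau and Plat), 3 fell (Serpinf1, Serping1 and Serpinb6a) and 2 were not called (Plaur and Serpinh1). Of the 9 tested probe sets 2 were called higher and 4 lower in NCSC at an adjusted p under 0.05 in limma's test. Over all probe sets tested 58.9% were called, 32% higher and 26.9% lower. The groups did not overlap for 6 of the 9, where 67.5% of all tested probe sets had groups that did not overlap. The share of these probe sets that changed was thus near that of the arrays as a whole. Of the 7 genes 4 were called with a difference of at least 2-fold (Plau, Serpinf1, Serping1 and Serpinb6a), where 28.9% of all tested genes were. The median difference, NCSC minus MSC, was 0.025 on the log2 scale over the 7 genes and 0.056 over all 10501 tested genes. All values below are log2 GCRMA intensities unless another scale is named.

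**Figure D1:**
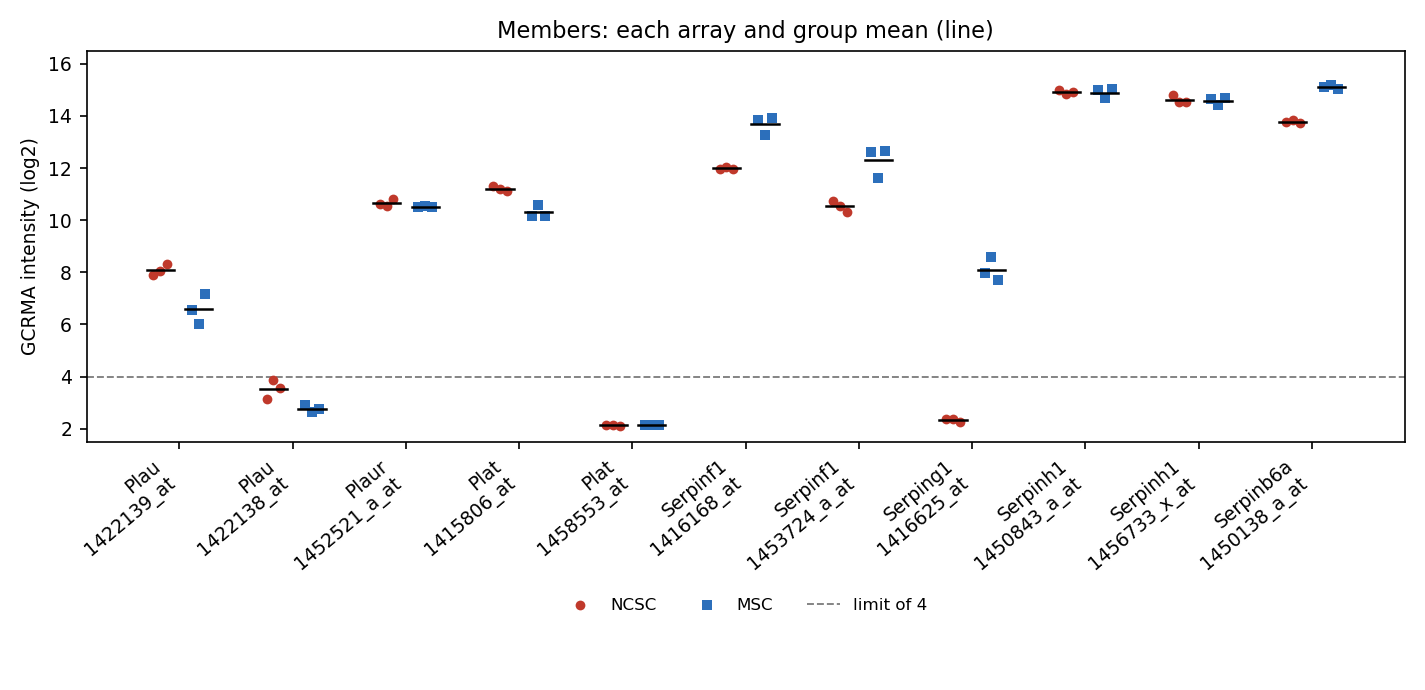
GCRMA intensity on the log2 scale (vertical axis) of the 11 probe sets of the 7 genes, with NCSC arrays as circles left of MSC arrays as squares, group means as lines and the limit of 4 dashed. Serping1 lies between 2.25 and 2.36 on the NCSC arrays, against 7.71 to 8.59 on the MSC arrays, while the groups overlap for Plaur and both Serpinh1 probe sets.

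Plau, which encodes uPA, was measured by a probe set above the limit on all 6 arrays, at the 25.9th percentile of the tested genes' levels in NCSC and the 14th in MSC. It had 7.91, 8.06 and 8.32 on the NCSC arrays, against 6.57, 6.02 and 7.17 on the MSC arrays. Every NCSC array was above every MSC array, and the MSC arrays spread more widely (SD 0.58, n = 3) than the NCSC arrays (SD 0.21, n = 3). The difference was 1.51 ± 0.30 (SE), or 2.85-fold, with a 95% confidence interval of 0.78 to 2.24 and an adjusted p of 0.00608. A second Plau probe set had 3.13, 3.89 and 3.56 in NCSC, against 2.91, 2.64 and 2.77 in MSC. All of these lie under the limit of 4, so that this probe set was not tested, although its groups did not overlap either.

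Plat, which encodes tPA, the activator best known from blood vessels and nervous tissue, had 11.32, 11.20 and 11.11 in NCSC, against 10.15, 10.60 and 10.15 in MSC. The groups were separate, with MSC 2 nearest to the NCSC arrays. Plat rose by 0.91 ± 0.15 (SE), or 1.88-fold, with an interval of 0.54 to 1.28 (adjusted p = 0.00304). The rise was 1.06 without MSC 2. The second Plat probe set stayed between 2.12 and 2.13 on all 6 arrays, at the floor of the deposited values.

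Plaur, the lipid-anchored receptor that gathers uPA at the cell surface, was well above background in both cell types. It had 10.61, 10.53 and 10.80 in NCSC, against 10.50, 10.54 and 10.50 in MSC. The groups overlapped, since NCSC 2 lay below MSC 2. The difference of 0.14 ± 0.096 (SE) was not called (adjusted p = 0.256), and its interval of -0.096 to 0.37 bounds it at less than a 2-fold change in either direction. Plau and Plaur are also genes of macrophages, so macrophage markers were set beside them. Of 8 such markers 3 were above the limit on all NCSC arrays and 2 on all MSC arrays, their summed linear intensity was 816 to 943 in NCSC and 173 to 196 in MSC, and the defining markers Ptprc, Adgre1 and Itgam were under the limit on all 6 arrays. Lysosomal Cd68 rose at least 27.9-fold (adjusted p = 9.86e-06) and lysozyme Lyz2 rose by 1.97 ± 0.18 (SE, adjusted p = 0.000266). The receptor chain Fcer1g rose by 0.79 ± 0.23 (adjusted p = 0.0256), and the receptor Csf1r was not called (0.54 ± 0.33, adjusted p = 0.203). Cd14, too dim to be tested, ran the other way, at 2.16 to 2.19 in NCSC and 3.96 to 5.15 in MSC. Whether macrophage RNA was present, and any part of it in the Plau difference, was not tested.

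Serpinf1, which encodes PEDF, fell in NCSC by both of its probe sets. The brighter one had 11.97, 12.03 and 11.98 in NCSC, against 13.85, 13.25 and 13.93 in MSC. The NCSC arrays were nearly equal, and MSC 2 was the lowest of the MSC arrays, yet far above them. The difference was -1.68 ± 0.19 (SE), a 3.21-fold fall (interval -2.15 to -1.22, adjusted p = 0.000608). The other probe set had 10.72, 10.55 and 10.32 in NCSC, against 12.60, 11.63 and 12.67 in MSC, and differed by -1.77 ± 0.30 (adjusted p = 0.00327). Both probe sets placed MSC 2 below the other MSC arrays, and without it the differences were -1.90 and -2.10.

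Serping1, which encodes the C1 inhibitor that restrains the first proteases of the complement and contact systems, showed the widest gap among the members. It had 2.36, 2.36 and 2.25 in NCSC, under the limit on every array, against 7.97, 8.59 and 7.71 in MSC. The C1 inhibitor transcript was thus measured above background in MSC alone. It was at least 17-fold lower in NCSC (adjusted p = 8.81e-06), a lower bound with values under the limit set to 4.

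Serpinh1, which encodes Hsp47, was among the brightest genes of both cell types and was not called. Its brighter probe set had 15.01, 14.84 and 14.91 in NCSC, against 14.99, 14.67 and 15.02 in MSC. Its other probe set had 14.80, 14.54 and 14.52 in NCSC, against 14.65, 14.42 and 14.69 in MSC. The groups overlapped in both, and the differences were 0.025 ± 0.12 and 0.036 ± 0.12 (SE, adjusted p = 0.876 and 0.816). Their intervals of -0.27 to 0.32 and -0.26 to 0.33 bound them well below 2-fold, whereas the sign of so small a difference turned with the scaling (-0.039 and -0.028 with each array centred on its median).

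Serpinb6a, an intracellular inhibitor of serine proteases, had 13.76, 13.83 and 13.72 in NCSC, against 15.11, 15.18 and 15.03 in MSC. Replicates were tight in both groups and the groups were far apart. The difference was -1.33 ± 0.082 (SE), a 2.52-fold fall with an interval of -1.53 to -1.13 (adjusted p = 5.69e-05). It remained bright in NCSC, above 95.6% of tested genes there by array intensity, a rank that also depends on how well its probes bind.

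**Figure D2:**
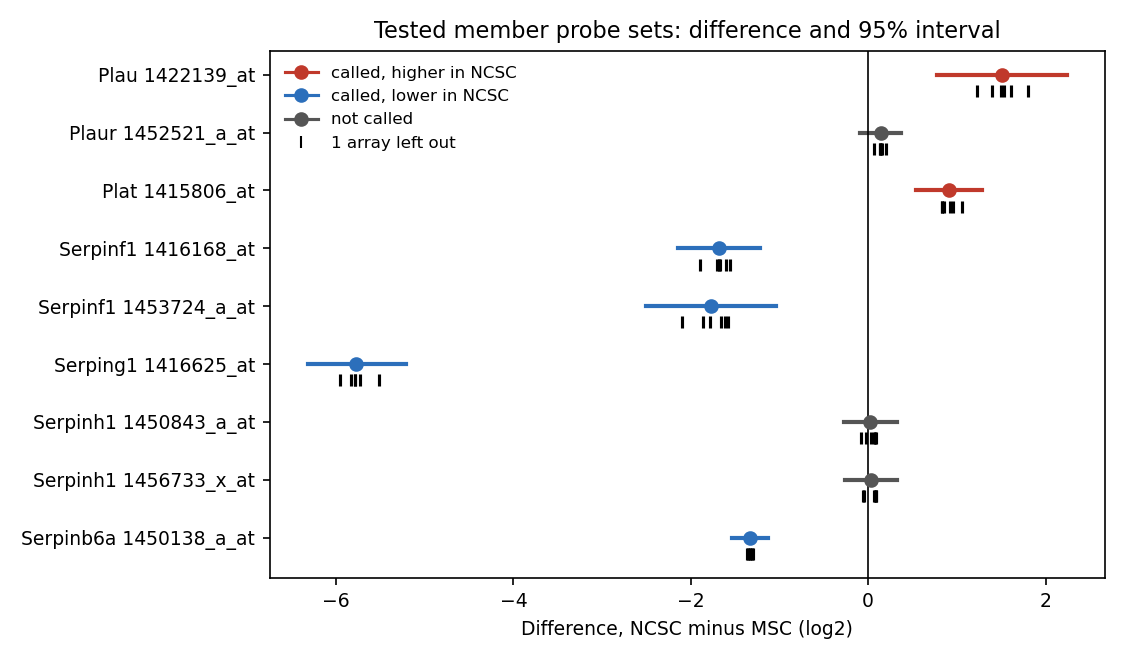
Difference in log2 intensity, NCSC minus MSC (horizontal axis), of the 9 tested probe sets with 95% confidence intervals, and below each the value with 1 array left out as black ticks. Plau and Plat lie right of 0, both Serpinf1 probe sets, Serping1 and Serpinb6a lie left of it, and no interval of these 6 includes 0.

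Windows of 300 bases around the transcription start, 250 before and 50 after it, were available from RefSeq (GRCm38.p6) for 5 of the 8 genes. Those of Plaur, which was not called, and of Serpinf1 and Serpinb6a, which fell, are printed to set the start regions of genes that did and did not move side by side. Capitals mark matches on either strand to 5 motifs. The AP-1 site, bound by Fos and Jun proteins, was searched as TGANTCA. The GC box, bound by Sp1 and its relatives, was searched as GGGCGG, and the box bound by the factor NF-Y as CCAAT. The letters used for the TATA box near many start sites were TATAAA, and a heat shock element was taken as GAANNTTC. The windows lie at chr7:24462233-24462532 on the plus strand for Plaur, at chr11:75422574-75422873 on the minus strand for Serpinf1 and at chr13:34002745-34003044 on the minus strand for the upstream one of 2 Serpinb6a starts.
Plaur: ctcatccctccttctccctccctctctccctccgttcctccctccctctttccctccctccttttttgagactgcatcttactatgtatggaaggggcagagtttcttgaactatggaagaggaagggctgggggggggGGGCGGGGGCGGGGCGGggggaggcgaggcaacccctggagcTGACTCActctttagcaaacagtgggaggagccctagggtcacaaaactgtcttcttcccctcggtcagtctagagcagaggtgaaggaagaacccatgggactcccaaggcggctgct
Serpinf1: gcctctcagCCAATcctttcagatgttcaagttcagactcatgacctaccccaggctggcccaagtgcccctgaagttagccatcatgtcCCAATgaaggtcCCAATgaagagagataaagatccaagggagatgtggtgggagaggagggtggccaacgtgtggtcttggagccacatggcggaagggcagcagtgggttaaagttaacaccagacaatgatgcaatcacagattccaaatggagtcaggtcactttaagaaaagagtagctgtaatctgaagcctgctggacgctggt
Serpinb6a: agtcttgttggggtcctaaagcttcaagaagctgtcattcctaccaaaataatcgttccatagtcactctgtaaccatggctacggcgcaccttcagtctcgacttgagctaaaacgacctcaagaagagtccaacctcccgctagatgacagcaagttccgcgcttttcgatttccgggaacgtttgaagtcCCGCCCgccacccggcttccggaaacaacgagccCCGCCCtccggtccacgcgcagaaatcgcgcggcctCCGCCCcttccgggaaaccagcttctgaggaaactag

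The Plaur window held 1 AP-1 match, starting at position -69 from the start site, and 3 GC boxes that overlap or touch, starting between -111 and -100. AP-1 matches occurred in 7.81% of 32851 windows of the same length. The Serpinf1 window held 3 CCAAT matches, at -241, -160 and -148, and no GC box, while 37.4% of all windows held a CCAAT match. The upstream Serpinb6a window held 3 GC boxes, at -57, -23 and 14, as 35.7% of all windows held at least 1, and the other Serpinb6a window held 1 CCAAT match. Serpinh1 had 1 GC box at -37 and Serpine2 had 6. No member's window matched the TATA box or heat shock letters, which 13.6% and 7.86% of windows held. Serpinf1 and Serpinb6a thus shared none of these motifs in the windows printed. A match is a description of the letters, not a site in use.

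Plasminogen was not detected, nor were most of the genes listed with it that were measured here. Plg, the zymogen itself, and Serpinf2, the plasmin inhibitor of plasma, were at the floor of 2.12 on all 6 arrays, as were A2m and Hrg. Serpinb2, an inhibitor of uPA and tPA known as PAI-2, was the tested member of this list of 7 genes, of which 5 had a probe set used here. It had 2.41, 2.12 and 2.12 in NCSC, against 8.16, 8.46 and 8.22 in MSC, and was at least 19.4-fold lower in NCSC (adjusted p = 6.7e-07).

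The tested genes for receptors and binding proteins of plasminogen differed by 0.60 or less in their brightest probe sets. Of 9 such genes 7 had a probe set used here and 4 were tested, with a median difference of -0.14. Of these 1 fell and 3 were not called, where 62.7% of all tested genes were called. Vtn, Krt8 and Krt18 were under the limit on all 6 arrays. S100a10, the partner of annexin A2 that binds plasminogen, had 14.34, 14.52 and 14.65 in NCSC, against 14.98, 15.25 and 15.08 in MSC. It fell by 0.60 ± 0.12 (SE) on the log2 scale (adjusted p = 0.00636). Anxa2 differed by 0.066 ± 0.084 and the plasminogen receptor Plgrkt by 0.071 ± 0.097, neither called (adjusted p = 0.525 and 0.554). Thbs1, named here after its value was seen, differed by -0.34 ± 0.13 and was not called (adjusted p = 0.0649), although its groups did not overlap.

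Partners of uPAR and the endocytic receptors that clear activator and inhibitor complexes moved in both directions. Of 16 genes 11 were tested, of which 6 rose, 4 fell and 1 was not called (median difference 0.61, where 62.7% of all tested genes were called by their brightest probe set, 34.1% higher and 28.6% lower). Itgb3, the integrin chain that pairs with alpha v as a vitronectin receptor, had 9.74, 9.53 and 9.58 in NCSC and 2.54 on all MSC arrays, and was at least 49-fold higher (adjusted p = 8.86e-08). A dimmer Itgb3 probe set, at 4.94, 5.88 and 5.50 in NCSC and under the limit in MSC, was at least 2.71-fold higher (adjusted p = 0.000186). Itga3, a laminin-binding integrin chain that associates with uPAR, rose by 3.15 ± 0.16 (SE, adjusted p = 2.89e-05). Its dimmer probe set, under the limit in MSC, was at least 1.82-fold higher (adjusted p = 0.000494). The endocytic receptor Lrp1, which takes up serpin complexes, had 11.29, 11.10 and 11.78 in NCSC, against 12.71, 13.26 and 12.62 in MSC. It fell by 1.47 ± 0.24 on the log2 scale (adjusted p = 0.00296), and its other probe set fell by 2.54 ± 0.36. Its relative Vldlr had 12.79, 12.85 and 12.81 in NCSC, against 10.81, 8.36 and 10.94 in MSC. In this brightest probe set Vldlr rose by 2.78 ± 0.69 (adjusted p = 0.0149), or by 1.94 without MSC 2. It was not called there without NCSC 2 (adjusted p = 0.0506, range over all settings 9.99e-05 to 0.0896). The other Vldlr probe sets rose by 3.08 to 3.98 (adjusted p from 0.000973 to 0.0255), with MSC 2 the lowest array in each. In all of these but the brightest, MSC 2 was under the limit, at 2.97 to 3.93. Their differences therefore rest in part on a value at background. The receptors for clearance thus did not move together.

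Among activators and substrates of uPA and plasmin, 6 of 18 genes were tested, 4 rose and 2 were not called (median difference 0.81). The share called was near the 62.7% of all tested genes. Tgfb1, whose latent product plasmin can activate, had 6.70, 6.66 and 7.62 in NCSC, against 3.89 to 4.17 in MSC, close to the limit, and rose by 2.97 ± 0.27 (SE, adjusted p = 0.000274). Mmp9, a gelatinase whose precursor lies downstream of plasmin, had 6.18, 5.32 and 7.46 in NCSC, against 3.94, 3.63 and 3.89 in MSC. It was at least 4.98-fold higher (adjusted p = 0.00757), its fitted difference was 2.50, or 1.93 without NCSC 3, and it was not called without the filter on low values (adjusted p = 0.0548, range 0.00139 to 0.0548). Met, the receptor of the uPA substrate hepatocyte growth factor, rose by 1.21 ± 0.15 (adjusted p = 0.000858), and Mmp2 by 0.41 ± 0.091 (adjusted p = 0.00964).

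Of the lists set beside the members, that of thrombin and coagulation receptors held the largest fall. Thbd, thrombomodulin, which turns thrombin towards protein C, had 2.33, 2.79 and 2.33 in NCSC, against 11.34, 11.93 and 11.37 in MSC. It was at least 187-fold lower in NCSC (adjusted p = 1.01e-06). Procr, the endothelial protein C receptor, had 6.22, 6.50 and 6.37 in NCSC, against 10.75, 10.70 and 10.72 in MSC, a 20.5-fold fall (adjusted p = 8.29e-07). Both genes are known from endothelium, whose 6 markers were under the limit on every array. Of 12 genes 5 were tested, 2 rose, 2 fell and 1 was not called (median difference -0.11), where 62.7% of all tested genes were called. The 2 that rose, the thrombin receptor F2r (0.38 ± 0.12, adjusted p = 0.0331) and the anticoagulant Pros1 (0.65 ± 0.18, adjusted p = 0.0245), lost their call when 1 array was left out. F2r was not called without MSC 1, MSC 2, MSC 3 or NCSC 1 (adjusted p = 0.0818, 0.0511, 0.106 and 0.0563), nor Pros1 without MSC 1, MSC 3, NCSC 1 or NCSC 2 (0.0767, 0.0795, 0.0823 and 0.0779). Over all settings their adjusted p ran from 0.00872 to 0.106 and from 0.000699 to 0.106.

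Of 5 genes for proposed receptors of PEDF 4 were tested. Of these 2 rose, 1 fell and 1 was not called (median difference 0.43), where 62.7% of all tested genes were called. Plxdc1, which was not tested, had 2.13 on all NCSC arrays, against 2.30, 5.95 and 2.13 in MSC. The lipase Pnpla2 rose by 1.09 ± 0.15 (SE, adjusted p = 0.00151). The Wnt coreceptor Lrp6 differed by 0.36 ± 0.10 (adjusted p = 0.0233) and the laminin receptor Rpsa by -0.32 ± 0.084 (adjusted p = 0.0193). Lrp6 lost its call without MSC 1, MSC 3 or NCSC 1 (adjusted p = 0.0756, 0.082 and 0.0752), as did Rpsa without MSC 1, NCSC 1 or NCSC 2 (0.068, 0.0645 and 0.0531). Over all settings their adjusted p ran from 0.00485 to 0.082 and from 0.00322 to 0.0701.

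Of the proteases that the C1 inhibitor binds, C1ra, C1s1 and Masp1 fell in NCSC, while Masp2, F11, F12 and Klkb1 were at the floor on all arrays. Of 21 genes of complement and the contact system 5 were tested, of which 4 fell and 1 rose, with a median difference of -1.84, where 28.6% of all tested genes fell and 34.1% rose. C1ra, which encodes the C1r protease, had 8.92, 8.85 and 8.61 in NCSC, against 11.27, 11.91 and 11.41 in MSC, a difference of -2.74 ± 0.19 (SE, adjusted p = 8.89e-05). C1s1, which encodes its partner C1s, had 10.42, 10.29 and 10.38 in NCSC, against 12.15, 12.45 and 12.01 in MSC, a difference of -1.84 ± 0.13 (adjusted p = 9.94e-05). For both, all NCSC arrays lay well below all MSC arrays. Masp1, a protease of the lectin pathway, fell by 1.38 ± 0.10 (adjusted p = 0.000124). The complement regulator clusterin (Clu) fell by 3.22 ± 0.43 (adjusted p = 0.00128), and its other 3 probe sets fell as well. The gene that rose was Cd59a, a surface inhibitor of the membrane attack complex (1.06 ± 0.25, adjusted p = 0.0126), named here after its value was seen. C1qa and C1qc were at the floor.

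Collagen chains, the clients of Hsp47, were mixed, as were genes for collagen folding, modification and crosslinking. Of 12 collagen chains 11 were tested, 3 rose, 2 fell and 6 were not called, with a median of 0.12. Thus 45.5% were called, where 62.7% of all tested genes were, 34.1% higher and 28.6% lower. Col3a1 and Col5a2 rose by 0.57 ± 0.087 and 0.52 ± 0.10 in their brightest probe sets (SE, adjusted p = 0.00217 and 0.00561). Their other probe sets rose by 1.25 ± 0.11 and 2.00 ± 0.16 (adjusted p = 0.000243 and 0.000143). Col5a3 was at least 40-fold lower (adjusted p = 6.29e-06) and Col1a1 fell by 0.64 ± 0.13 in its brightest probe set (adjusted p = 0.00657) but not in its other one (-0.095 ± 0.20, adjusted p = 0.698). Of 25 genes for collagen folding, modification and crosslinking 22 were tested, with 7 higher, 7 lower and 8 not called (median -0.14). The share called, 63.6%, was near that of all tested genes. Pcolce2, an enhancer of procollagen cleavage, had 11.77, 11.86 and 12.56 in NCSC, against 3.98, 5.72 and 3.95 in MSC, where MSC 2 alone was above the limit. Its fitted difference of 7.51 ± 0.52 (adjusted p = 9.43e-05) therefore rests in part on values at background. The prolyl hydroxylase P3h2 rose by 5.29 ± 0.27 (adjusted p = 2.64e-05), with MSC values of 4.06, 5.08 and 4.30, close to the limit. The crosslinking enzyme Lox had 9.39, 9.45 and 9.74 in NCSC, against 14.71, 14.41 and 14.66 in MSC (-5.07 ± 0.13, adjusted p = 1.69e-06). The prolyl hydroxylase subunit P4ha3 fell by 5.47 ± 0.21 (adjusted p = 7.76e-06), with NCSC values of 5.20, 4.42 and 4.56, also close to the limit. These changes of single enzymes and chains stood beside a Serpinh1 level that was not called.

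**Figure D3:**
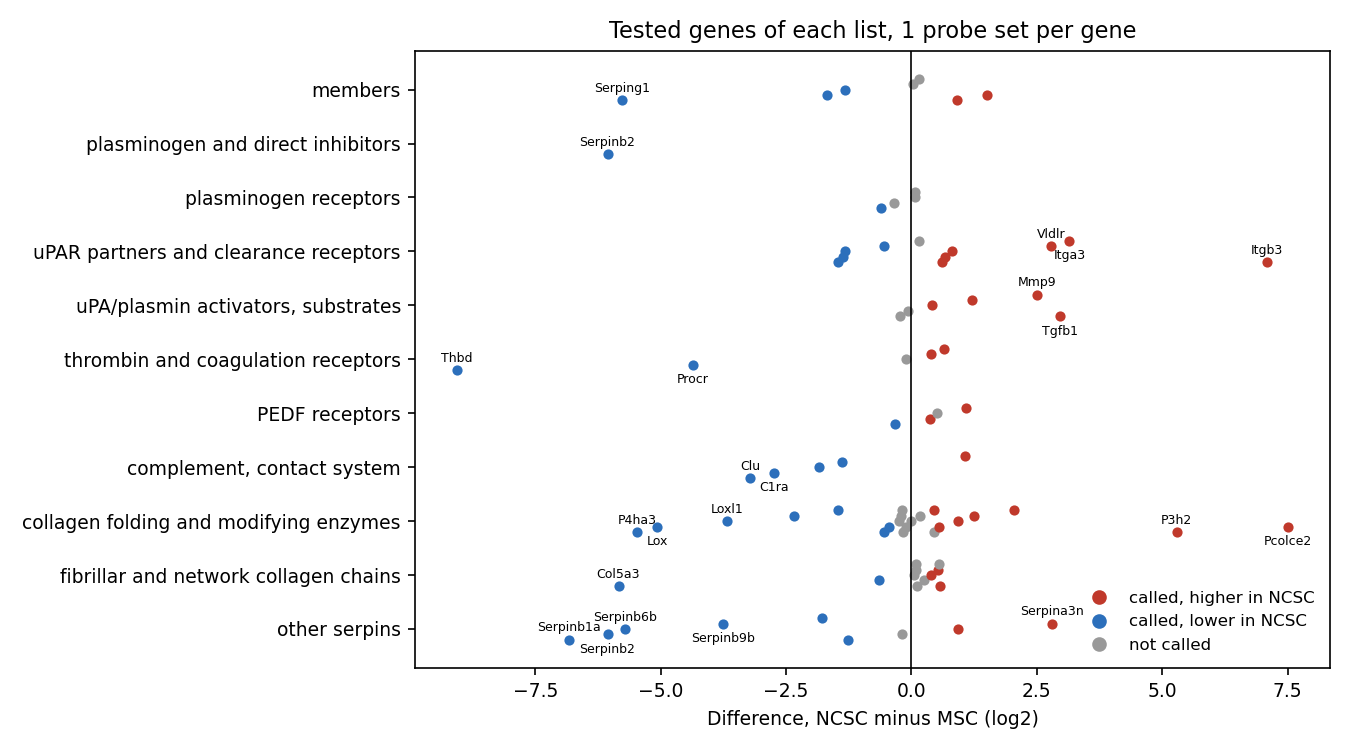
Difference in log2 intensity, NCSC minus MSC (horizontal axis), of each tested gene by list, 1 probe set per gene, with called genes in red (higher in NCSC) or blue (lower in NCSC) and others in grey; Serpinb2 stands in 2 lists. The complement genes lie mostly left of 0 and Thbd is the farthest left at -9.06, while plasminogen receptors lie between -0.60 and 0.07.

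Of 36 other serpin genes with a probe set 9 passed the filter, so that 27 were too dim to be tested. Of these 9, 6 fell, 2 rose and 1 was not called, with a median difference of -1.78, where 28.6% of all tested genes fell and 34.1% rose. Serpinb1a, an inhibitor of neutrophil proteases, had 2.40, 2.58 and 2.40 in NCSC, against 9.38, 8.96 and 9.51 in MSC, and was at least 39-fold lower (adjusted p = 1.04e-06). Its dimmer probe set had 2.78 on all NCSC arrays, against 6.56, 5.60 and 6.42 in MSC, and was at least 4.57-fold lower (adjusted p = 0.000124). Serpinb6b, a close relative of Serpinb6a, was at least 26.2-fold lower, at 2.82, 3.34 and 2.82 in NCSC and 8.70, 8.56 and 8.87 in MSC (adjusted p = 2.87e-06). The granzyme B inhibitor Serpinb9 fell by 1.78 ± 0.11 (SE, adjusted p = 5.24e-05) and its relative Serpinb9b by 3.76 ± 0.21 (adjusted p = 4.11e-05). Many clade B genes of the mouse are close copies of each other, and signal shared between their probe sets was not tested. Serpina3n, a secreted acute-phase serpin, rose by 2.81 ± 0.71 (adjusted p = 0.0162). It had 10.51, 10.27 and 8.29 in NCSC, against 5.89, 7.56 and 7.20 in MSC. Both groups were spread widely without overlap. It was not called without NCSC 1 (adjusted p = 0.0566) or NCSC 2 (0.0605), within a range over all settings of 0.000913 to 0.0952.

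**Figure D4:**
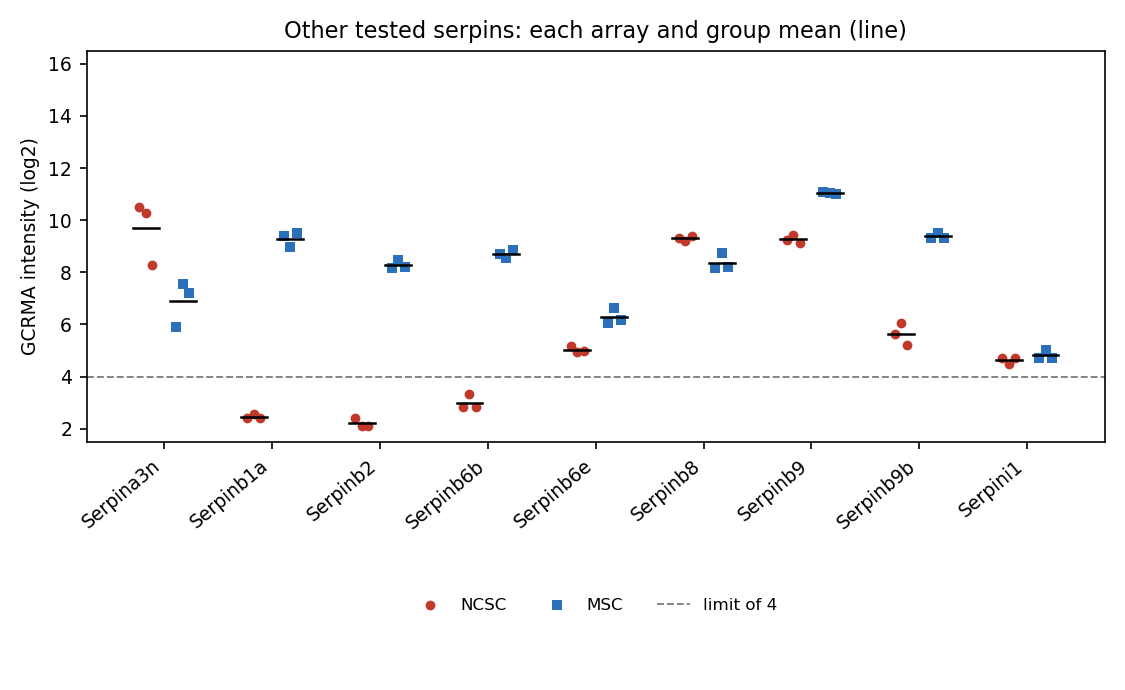
GCRMA intensity on the log2 scale (vertical axis) of the 9 tested serpin genes outside the list, with NCSC arrays as circles left of MSC arrays as squares, group means as lines and the limit of 4 dashed. By the brightest probe set of each gene, Serpinb1a, Serpinb2 and Serpinb6b lie under the limit on all NCSC arrays and at 8.16 or higher on all MSC arrays.

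The genes most like each member were those with the smallest root mean square distance over the 6 arrays, after each probe set was centred on its own mean. For Plau they were Abhd1, Npas3 and Zkscan7 at distances of 0.13, 0.14 and 0.17 log2 units, and for Plat Zfp142, Tapbp and Fnip2 at 0.045 to 0.06. None is given for Serping1, whose NCSC values lie under the limit. Serpinf1 was nearest to Smyd5 (0.029) and Serpinb6a to Pkdcc (0.053). Over 10501 genes and 6 arrays this is a description with no test.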

How the data were processed

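The authors deposited 1 table of linear intensity values per probe set, the output of GCRMA per the submitters' processing notes (version not given in the sources used here). GCRMA corrects background by probe sequence and normalizes between arrays. Values ran from 4.36, a shared floor, to 116597, and were taken to log2 without further normalization. The number of arrays limits precision. Probe sets came with 1 gene (34945), several (932) or none (9160), and 34754 were matched to RefSeq by gene ID. Probe sets above 4 on at least 3 of 6 arrays were fitted together with limma 3.58.1 in R 4.3.3 (lmFit, eBayes, two-sided), with Benjamini-Hochberg adjustment over all 21004. Differences are NCSC minus MSC. Where a group lay under 4 on every array, the fold is a lower bound with values under 4 set to 4. The fit was tested on simulated data with independent noise and known shifts in few probe sets, which does not measure its error rate here.

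Lists used the brightest kept probe set of each gene. Named from each list were up to 4 called genes with the largest difference (6 for other serpins), plus Plg, Serpinb2, Serpinf2, Anxa2, S100a10, Lrp1 and Plgrkt; a further gene of this rule is not reported here. The genes and lists were chosen with earlier results of these data known. Alternatives covered filters, probe set summaries, normalization, variance models, the replicate block and left-out arrays.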

Additional observations from a re-analysis of the deposited data

How the results depend on the processing

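Under all 17 alternatives run, the tested probe sets of Plau, Plat, Serpinf1, Serping1 and Serpinb6a kept their direction and their call wherever they entered the fit, and Plaur and Serpinh1 were not called. Adjusted p ran from 0.00285 to 0.0446 for Plau and from 0.000122 to 0.0211 for Plat, both highest without the filter on low values. The difference of the brighter and the dimmer Serpinh1 probe set was -0.039 and -0.028 with median centring, and that of the brighter one was -0.047 with array weights and -0.081 with MSC 2 and NCSC 3 both omitted, a setting chosen after seeing the data. With 1 array left out they ran from -0.086 to 0.086 and from -0.053 to 0.086, and Plgrkt from -0.00075 to 0.13. The fits with 1 probe set per gene and with the mean per gene called 6731 (3672 higher, 3059 lower) and 6756 (3706 higher, 3050 lower) of 10501 genes, against 12362 of 21004 probe sets (6711 higher, 5651 lower), since fewer features were tested. Of 36 further named genes with a test 27 kept direction and call in every alternative. Besides those given in the report, Vldlr, Pros1, F2r, Lrp6 and Serpina3n were not called without the filter (adjusted p = 0.0896, 0.106, 0.0948, 0.0536 and 0.0952), Lrp6 with quantile normalization (0.0503), F2r and Lrp6 with median centring (0.0766 and 0.0696) and Col1a1 with the mean of its probe sets (0.0551). The cause was not tested.

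No pairing by replicate number was seen in the values. Deviations from the group means of same-numbered arrays correlated at -0.0892, 0.052 and 0.0391, and not every array correlated best with its own number. With so few arrays per group this cannot show whether same-numbered arrays share an origin. With the replicate block 11293 probe sets were called and the same count of 6 among the members, while F2r, Lrp6 and Rpsa were not called (adjusted p = 0.0835, 0.0718 and 0.0701). Genes under the limit of 4 allow a bound only.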
